A study of Mus musculus with 4 samples.

Results

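Peaks of 20 kb or wider on the autosomes were selected from pooled ATAC-seq peak lists of mouse hair follicle stem cells (HFSC), 1 list per genotype. A peak was a member when its end minus its start was 20000 bp or more, so width chose the members. Widths, counts and ranks of the members are therefore descriptions. The Irx5KO list held 390 such peaks among 441022 autosomal peaks (0.0884%), and the WT list held 415 among 452761 (0.0917%), 805 members in all out of 985974 peaks in both whole lists. ATAC-seq uses the transposase Tn5 to cut and tag open DNA. The study had 4 samples, 2 labelled Irx5KO and 2 labelled WT, of HFSC sorted as Ly-6A/E-, CD34+ and positive for a marker spelled CD45f in the labels. Irx5 is a homeobox gene, and HFSC are the resting stem cells from which a follicle regrows its hair. The allele, strain, age and sex of the mice, and whether replicates came from separate mice, are not stated in the labels. Each list joins both replicates of its genotype, so no spread between replicates exists and no test between genotypes was run. Intervals are 95% Wilson intervals for shares and order-statistic intervals for medians, and cover counting error only. A difference between the lists cannot be told apart from a difference between mice or libraries.

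Open chromatin usually shows in such lists as short windows over promoters and enhancers. The mouse genome also carries long arrays of gene copies that arose by tandem duplication, such as the major urinary protein genes, zinc finger genes, germline genes and small RNA genes. Copies in a young array can be nearly identical in sequence. Long peaks over such arrays are unlike the short windows over regulatory elements. The members are therefore described here by the arrays and other loci they lie in, from sequence to position to genes.

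Promoter sequences show how alike genes of 1 symbol group within 1 wide peak could be. Each pair shown is among the most alike of its group, and other genes can lie between its members. Sequences are RefSeq promoters of build GRCm38.p6, from 250 bases before to 50 bases after the gene start, 5′ to 3′ on the strand of the gene. Capitals mark bases that had no equal partner in a global alignment of the pair, and a sequence all in lower case had none. The first pair is shown because it was identical over all 300 bases. Gm4301 (chr10:100335426-100335725, plus strand) and Gm4312 (chr10:100382511-100382810, minus strand), provisional gene models, lay in 1 wide peak in each list, and 5 other genes shared 30-base words with each of these promoters.
Gm4301: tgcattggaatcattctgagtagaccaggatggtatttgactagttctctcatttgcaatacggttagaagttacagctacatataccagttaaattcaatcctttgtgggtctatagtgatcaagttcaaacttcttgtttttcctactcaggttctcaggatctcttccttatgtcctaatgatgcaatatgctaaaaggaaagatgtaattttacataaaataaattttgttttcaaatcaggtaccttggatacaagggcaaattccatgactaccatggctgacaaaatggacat
Gm4312: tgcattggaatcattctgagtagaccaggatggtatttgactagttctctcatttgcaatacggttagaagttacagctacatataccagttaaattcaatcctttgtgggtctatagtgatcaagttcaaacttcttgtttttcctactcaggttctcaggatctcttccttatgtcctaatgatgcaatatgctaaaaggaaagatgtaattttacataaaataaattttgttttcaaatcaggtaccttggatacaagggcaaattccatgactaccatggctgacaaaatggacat

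The second pair shows 2 major urinary protein genes, which encode secreted lipocalins that carry pheromones. Every other pair of this group inside 1 wide peak had an identity of 46.0% or less. Mup9 (chr4:60421903-60422202, minus strand) and Mup10 (chr4:60582106-60582405, minus strand) differed by 21 edits, an identity of 93.0%, and lay in separate Irx5KO wide peaks but in 1 WT wide peak.
Mup9: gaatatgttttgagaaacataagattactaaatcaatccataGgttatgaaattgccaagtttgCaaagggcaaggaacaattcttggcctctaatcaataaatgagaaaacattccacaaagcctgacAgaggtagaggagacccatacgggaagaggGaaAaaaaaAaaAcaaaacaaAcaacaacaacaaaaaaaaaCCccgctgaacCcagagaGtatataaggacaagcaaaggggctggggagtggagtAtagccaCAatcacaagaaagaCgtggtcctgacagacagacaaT
Mup10: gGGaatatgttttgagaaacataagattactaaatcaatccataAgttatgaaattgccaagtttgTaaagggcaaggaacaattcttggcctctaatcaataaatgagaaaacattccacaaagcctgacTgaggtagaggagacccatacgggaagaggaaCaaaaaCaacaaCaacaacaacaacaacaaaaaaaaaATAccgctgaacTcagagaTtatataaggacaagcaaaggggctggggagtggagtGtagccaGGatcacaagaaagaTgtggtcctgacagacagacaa

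The third pair comes from an array next to the Sp100 genes on chromosome 1 and shows a shift of the aligned window. A530032D15Rik (chr1:85109804-85110103, minus strand) and C130026I21Rik (chr1:85270517-85270816, minus strand) differed by 34 edits, most of them at the ends, an identity of 88.67%. They lay in 1 wide peak in each list.
A530032D15Rik: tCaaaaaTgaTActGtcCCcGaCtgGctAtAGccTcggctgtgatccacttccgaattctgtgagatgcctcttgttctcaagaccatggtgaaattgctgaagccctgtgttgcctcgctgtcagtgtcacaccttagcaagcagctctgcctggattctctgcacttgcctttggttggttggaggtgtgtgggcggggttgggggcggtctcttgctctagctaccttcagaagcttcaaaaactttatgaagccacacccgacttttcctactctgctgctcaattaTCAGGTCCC
C130026I21Rik: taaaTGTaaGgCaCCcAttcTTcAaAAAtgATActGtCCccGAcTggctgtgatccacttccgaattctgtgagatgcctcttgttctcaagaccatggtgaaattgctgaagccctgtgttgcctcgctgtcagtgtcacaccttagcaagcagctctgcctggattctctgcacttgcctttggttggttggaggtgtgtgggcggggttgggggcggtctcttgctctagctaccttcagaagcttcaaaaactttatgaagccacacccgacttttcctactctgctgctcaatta

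Shared promoter sequence was common among genes inside wide peaks. Of 444 promoters in Irx5KO wide peaks, 328 (73.87%, interval 69.6 to 77.74) had at least 50% of their 30-base words in a promoter of another gene, and of 483 in WT wide peaks 347 (71.84%, 67.67 to 75.67) did. Over all 31396 autosomal promoters in the RefSeq table, 1072 (3.41%) did. The share was 53.15% in the Irx5KO list and 49.86% in the WT list for promoters under peaks of 5 to 20 kb, and 0.367% and 0.383% for promoters under no peak. A promoter counted as in a peak if it overlapped the peak. The 444 promoters belonged to 333 genes and the 483 to 366, and sharing is mutual between copies. The intervals treat promoters as independent, which they are not. Every word was shared in 110 promoters (24.77%) of Irx5KO wide peaks and in 115 (23.81%) of WT wide peaks, against 1.02% of all promoters. Promoters in wide peaks had a median GC content of 48.67% in both lists and a median of 2 CpG dinucleotides, against 53.0% and 7 over all autosomal promoters. The GC content was not particular to wide peaks. Under peaks of 5 to 20 kb the medians were 48.0% and 4 in both lists. Under no peak they were 47.67% and 4 in Irx5KO and 48.33% and 4 in WT. Sharing did not make genes of 1 family in 1 wide peak alike throughout. Wide peaks held 259 ordered pairs of genes of 1 family inside 1 wide peak, with 398 promoter pairs, since some genes have several promoters. Pairs were ordered by promoter position, so a few, such as Sp110 with Sp140 and Gm8005 with Gm2959, counted in both orders. By the most alike promoters of each ordered pair, 24 were identical and 67 had an identity of at least 95%. Another 156 were below 60%, and the median identity was 49.0%. The 156 include Gm2959 with Gm8005 in 1 order (45.67%), although the other order reached 61.67%. Families here are groups of gene symbols, and the largest, the provisional Gm models, holds unrelated genes.

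**Figure D1:**
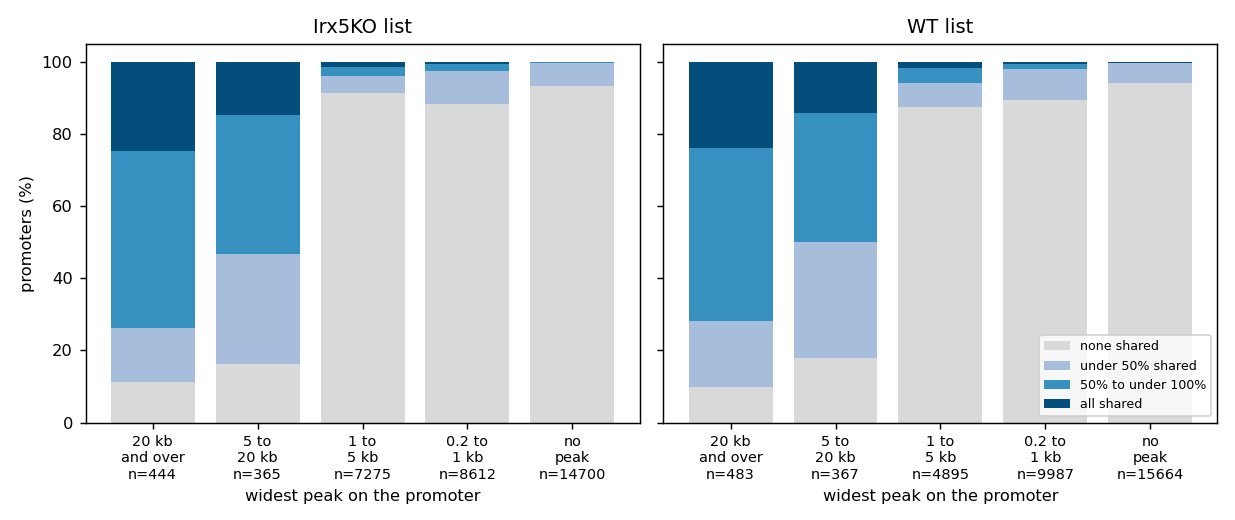
Share of autosomal promoters (%) by how much of their 30-base words occurs in the promoter of another gene, for classes of the widest peak on the promoter, in the Irx5KO list (left) and the WT list (right). In wide peaks 24.77% of Irx5KO promoters and 23.81% of WT promoters share every word, against 0.0884% and 0.1404% of promoters under no peak.

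Widths ran through the 20 kb limit without a break. The lowest Irx5KO members were 20030, 20090 and 20200 bp wide, and the peaks just outside were 19980, 19970 and 19950 bp. In WT the lowest members were 20010, 20100 and 20190 bp wide, and those just outside 19980, 19960 and 19960 bp. Median width was 33.28 kb in Irx5KO and 33.01 kb in WT, with quartiles of 24.22 and 51.88 kb in Irx5KO and 25.45 and 57.72 kb in WT. Members of 100 kb or more numbered 39 in Irx5KO and 47 in WT, and those of 200 kb or more 5 and 13. The widest peak was 353.2 kb in Irx5KO, at chr14:4708831-5062020, and 509.9 kb in WT, at chr5:15047081-15556980. Members summed to 19.09 Mb in Irx5KO, 4.83% of all autosomal peak bases, and to 22.11 Mb in WT, 5.47%. The 10 to 20 kb class held 891 Irx5KO and 1018 WT peaks.

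**Figure D2:**
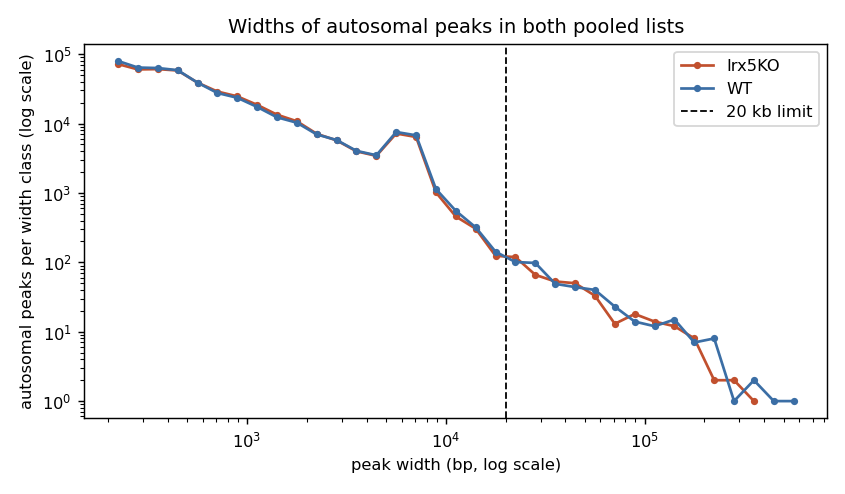
Number of autosomal peaks per width class (log scale) against peak width in bp (log scale) in the Irx5KO and the WT list, with the 20 kb limit as a dashed line. Counts thin out steadily through the limit, with 390 Irx5KO and 415 WT peaks to its right and a longer right end in WT.

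Wide peaks ranked high within their lists, as did peaks of the next narrower classes. The score is the authors' own value per peak. The median member stood at percentile 97.39 of the Irx5KO scores and 97.75 of the WT scores, and 328 Irx5KO members (84.1%, 80.14 to 87.4) and 361 WT members (86.99%, 83.41 to 89.89) were in the top 10% of their list. Median percentiles were 96.43 in Irx5KO and 95.71 in WT for members of 20 to 50 kb, 94.47 and 95.29 for peaks of 10 to 20 kb, and 94.78 and 95.19 for peaks of 5 to 10 kb. The lowest member stood at percentile 67.1 in Irx5KO and 67.38 in WT. The highest score of any member belonged to 1 locus in both lists, the centromeric end of chromosome 9. There the Irx5KO peak chr9:2999971-3054630 had a score of 342128 and the WT peak chr9:2999961-3077590 a score of 378241, both at the top of their list's percentiles after rounding. The only gene of the table inside was Mir101c, a microRNA gene.

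Nearly all of the sequence in wide peaks was also in peaks of the other genotype. The median Irx5KO member was covered to 99.95% by WT peaks (99.92 to 99.98), and the median WT member to 99.66% by Irx5KO peaks (99.58 to 99.75). Coverage was complete for 161 Irx5KO and 60 WT members. The share of peaks with complete coverage was not computed over all autosomal peaks, so these counts only describe the members. The median number of bases outside the other list was 20 bp in Irx5KO members and 140 bp in WT members. Less than 50% was covered in 3 Irx5KO members (0.769%), against 26.5% of all Irx5KO autosomal peaks, and in 2 WT members (0.482%), against 30.9% of all WT autosomal peaks. Breadth itself went with coverage in the lists: peaks of 10 to 20 kb had a median of 99.81% in Irx5KO and 99.33% in WT, and 3 and 0 of them were under 50%. Peaks of 200 to 1000 bp had medians of 87.5% and 80.0%. Wide peaks thus stood close to the next narrower class in coverage.

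**Figure D3:**
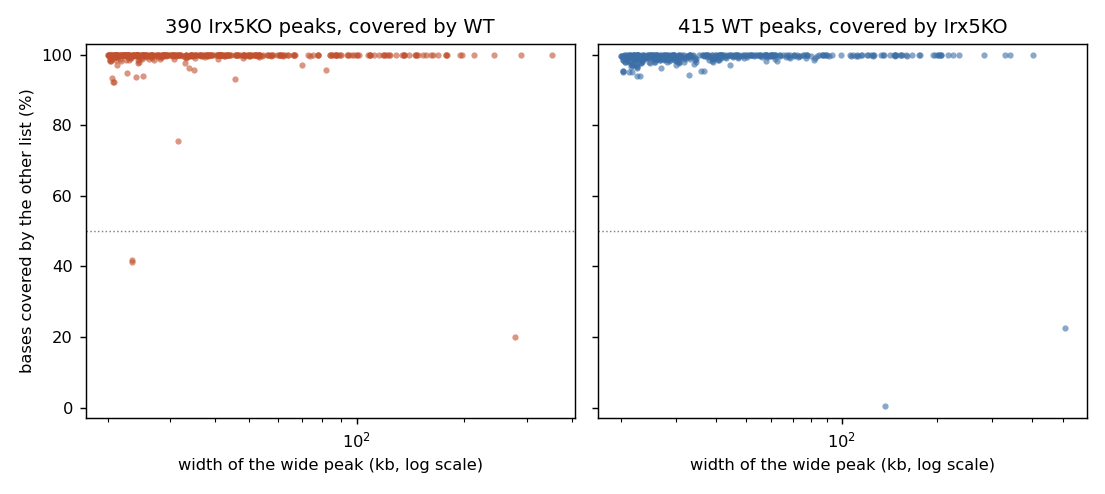
Percent of each wide peak covered by peaks of the other list (y) against its width in kb (x, log scale), for Irx5KO peaks covered by WT (left) and WT peaks covered by Irx5KO (right), with a dotted line at 50%. All but 3 Irx5KO points and all but 2 WT points lie above 50%, and those of chromosome 8 in Irx5KO and of Dock2 and chromosome 5 in WT are wide as well as poorly covered.

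The lists divided this shared sequence differently. Merging members that overlap gave 435 loci, of which 270 were wide in both lists, 50 in Irx5KO only and 115 in WT only. Loci wide in both summed to 19.65 Mb, with a median of 46.43 kb. In 206 of them each list had 1 wide peak, in 44 Irx5KO had more and in 15 WT had more. Members with no wide counterpart were mostly near the limit, with a median width of 23.23 kb in Irx5KO and 25.54 kb in WT. They were still covered to a median of 98.8% in Irx5KO and 98.59% in WT, by a median of 4 narrower peaks. Of the 50 in Irx5KO, 47 were covered to at least 90%, and of the 115 in WT, 114. A single WT peak overlapped 233 Irx5KO members, and a single Irx5KO peak overlapped 115 WT members. Both borders lay within 100 bp of those of 1 peak of the other list in 47 Irx5KO members (12.05%) and 47 WT members (11.33%). Wide peaks were rarely isolated: another peak of the same list lay within 100 bp, on either side, of 330 Irx5KO and 348 WT members. Shares over all autosomal peaks were not computed for single overlaps, matched borders or such near neighbours, so these counts only describe the members. To the right of a member the next peak was a median of 80 bp away in each list, against 2100 bp over all Irx5KO and 2040 bp over all WT autosomal peaks.

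Members lay on 15 autosomes in Irx5KO and 17 in WT. Chromosomes 3 and 17 held none in either list, and chromosome 16 held 0 in Irx5KO and 5 in WT. Chromosome 12 held 90 Irx5KO and 100 WT members, chromosome 14 held 87 and 80, chromosome 4 held 52 and 43, and chromosome 7 held 38 and 59. By bases chromosome 14 was first, with 6.82 Mb in Irx5KO and 7.03 Mb in WT. Loci less than 500 kb apart formed 68 neighbourhoods. Of these, 14 spanned 1 Mb or more and held 614 of the 805 members, with 14.83 Mb in Irx5KO and 16.58 Mb in WT. Peaks of any width covered 63 of the 68 neighbourhoods to within 5 percentage points of each other in the lists. Irx5KO had more wide peaks in 19 neighbourhoods and WT in 25, and 24 had equal numbers. In 30 of the 68, wide peaks overlapped no protein-coding gene, although some of these held pseudogenes or other genes. Peaks of any width within the 68 neighbourhoods numbered 5483 in Irx5KO and 4961 in WT. Mouse chromosomes have their centromere at the low end of the coordinates, and 11 neighbourhoods began below 3.4 Mb. Within that first 3.4 Mb of their chromosomes lay 13 Irx5KO and 23 WT members.

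**Figure D4:**
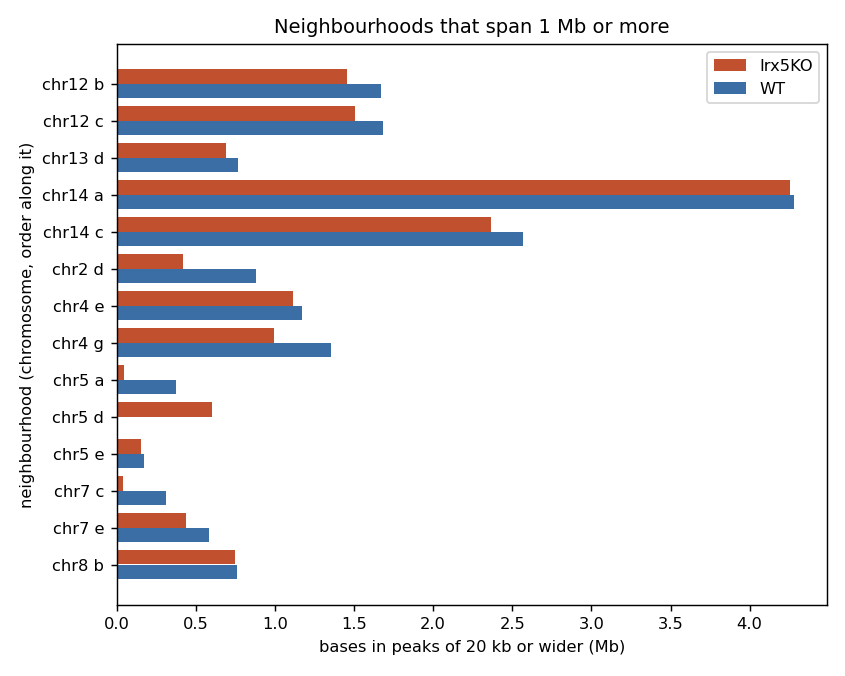
Bases in wide peaks (Mb) in each of the 14 neighbourhoods of 1 Mb or more, with the Irx5KO bar above the WT bar and a letter for the order of neighbourhoods along a chromosome. The start of chromosome 14 leads with 4.26 Mb in Irx5KO and 4.28 Mb in WT, and the chromosome 5 neighbourhood that begins at 93887111 has 0.605 Mb in Irx5KO and 0 in WT.

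Wide peaks overlapped protein-coding genes in 216 Irx5KO members (55.38%, 50.42 to 60.24), against 33.6% of all Irx5KO autosomal peaks, and in 214 WT members (51.57%, 46.77 to 56.34), against 33.1% of all WT autosomal peaks. A longer interval meets a gene more easily, so this share carries width in it: it was 46.67% for Irx5KO and 38.83% for WT members of 20 to 50 kb, and 79.05% and 81.45% for members of 50 kb or more. The 10 to 20 kb class stood at 24.24% in Irx5KO and 21.22% in WT. A whole protein-coding gene lay inside 124 Irx5KO and 134 WT members, and a pseudogene was overlapped by 190 and 212. No gene of the table was overlapped by 53 Irx5KO and 54 WT members. Shares over all autosomal peaks were not computed for whole genes, pseudogenes or peaks without a gene. These counts only describe the members and carry width in them too. The longest locus without a gene, at chr6:114489611-114638070, was 1 wide peak of 148.3 kb in Irx5KO and 1 of 148.4 kb in WT.

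Counted by gene, Irx5KO wide peaks overlapped 318 of 20665 autosomal protein-coding genes (1.54%) and WT wide peaks 332 (1.61%), with 294 in both. An overlap of 1 bp was enough, so a gene counted as in wide peaks may be so only in part. Whole in wide peaks were 232 genes in Irx5KO and 251 in WT. Most had provisional names: Gm models made up 231 genes in Irx5KO and 236 in WT, which is 23.89% and 24.41% of all 967 autosomal Gm models. Among families with established names, 18 of 24 major urinary protein genes lay in wide peaks of both lists, as did 5 of 10 Speer genes, which encode glutamate-rich testis proteins, and 3 of 4 genes of the Sp100 group. Genes with KRAB-type zinc finger names numbered 15 in Irx5KO and 20 in WT out of 400. Many KRAB zinc finger proteins are DNA-binding repressors that silence transposons. The group rests on symbols, and whether each gene encodes a KRAB domain was not checked. Pramel genes, which encode leucine-rich repeat proteins of the germline, numbered 9 in Irx5KO and 1 in WT out of 49. Serpins, prolactin family genes and secretoglobins had 0 genes each in Irx5KO and 2 each in WT, out of 62, 25 and 40. Several large families had no gene in wide peaks. Of 1104 olfactory receptor genes, 231 type 1 and 123 type 2 vomeronasal receptor genes, 56 histone genes, 53 keratin genes and 56 keratin-associated protein genes, 0 were overlapped in either list. The upper interval limit was 0.347% for olfactory receptors, below the 1.54% and 1.61% over all protein-coding genes. For the other families named here it was above them, from 1.64% for type 1 vomeronasal receptors to 6.76% for keratins, so their counts of 0 show no difference.

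The longest neighbourhood lay at the start of chromosome 14, chr14:3000001-7664920. It held 45 Irx5KO wide peaks with 4.26 Mb and 42 WT wide peaks with 4.28 Mb, and peaks of any width covered 99.6% of it in Irx5KO and 99.58% in WT. Wide peaks there overlapped 76 protein-coding genes, 46 pseudogenes and 36 other genes. Most have provisional names, and 2610042L04Rik is listed in RefSeq as takusan, a family described at synapses in mouse brain. Of the 10 widest Irx5KO peaks, 8 were on chromosome 14, among them chr14:4708831-5062020 over Gm7876, Gm9602, Gm3264 and Gm3278, covered to 99.94% by 3 WT wide peaks. In WT the second widest peak of the list, chr14:3735891-4138240, was 402.4 kb wide over Gm3050, Gm3095, Gm32966 and Gm5796, and Irx5KO covered 99.92% of it with 5 peaks. A further chromosome 14 neighbourhood, chr14:41215061-44732310, held 37 Irx5KO and 34 WT wide peaks over 42 protein-coding genes in Irx5KO and 43 in WT, including 1700049E17Rik1 and 1700049E17Rik2.

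Mup genes were in wide peaks of both lists along chr4:60040921-61805300. The array was covered to 76.94% in Irx5KO and 77.03% in WT by peaks of any width. Irx5KO divided it into 19 wide peaks with 1.12 Mb, and WT into 12 with 1.17 Mb. The largest single case was the WT peak chr4:60380661-60605840, 225.2 kb over Mup9, Mup1 and Mup10. Irx5KO covered 99.87% of it with 5 peaks, 4 of them wide. Outside the array's protein-coding genes, 14 of 21 Mup pseudogenes lay in wide peaks of each list.

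Zinc finger arrays were the next group. At chr4:145496021-147751440 Irx5KO had 27 wide peaks with 0.992 Mb and WT had 21 with 1.35 Mb, over 14 protein-coding genes in Irx5KO and 15 in WT, among them Zfp990, Zfp980, Zfp600 and Rex2 in both. At chr2:174969291-177978450 Irx5KO had 18 wide peaks with 0.418 Mb and WT had 31 with 0.879 Mb, over 8 protein-coding genes in Irx5KO and 20 in WT. Zfp966 was overlapped by wide peaks of both lists. Zfp967, Zfp968, Zfp970 and Zfp972 were overlapped by WT wide peaks only and in part, from 21.1% of Zfp968 to 69.53% of Zfp970. Coverage by peaks of any width was close in both lists at each array, 79.13% in Irx5KO and 79.54% in WT on chromosome 4, and 81.0% and 81.73% on chromosome 2. On chromosome 2 the number of peaks of any width was 544 in Irx5KO and 383 in WT. Chromosome 13 added chr13:65371971-66863340, with 20 Irx5KO and 19 WT wide peaks, over 10 protein-coding genes in each list, with Zfp640 in both. Apart from these arrays, chromosome 12 held a pair of neighbourhoods, chr12:17849701-21061600 and chr12:21616891-24356810, mostly over provisional models. They had 42 and 45 wide peaks in Irx5KO and 44 and 47 in WT. No gene with a zinc finger name was among the protein-coding genes in wide peaks there.

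Genes of the early embryo and germline formed a group on chromosome 7. All 4 Zscan4 genes of the table, Zscan4b, Zscan4c, Zscan4d and Zscan4f, lay in wide peaks of both lists. Zscan4 marks the 2-cell embryo and rare embryonic stem cells that resemble it. Obox genes encode oocyte-specific homeobox proteins. Of 47 Obox pseudogenes, 24 lay in Irx5KO and 31 in WT wide peaks, against 2.99% and 3.85% of all autosomal pseudogenes. None of the 6 protein-coding Obox genes did, but with 6 genes and a share of 1.54% and 1.61% over all protein-coding genes this count shows no difference. Type 2 vomeronasal receptors are pheromone receptors of the vomeronasal organ. Of their 128 pseudogenes, 15 lay in Irx5KO wide peaks and 16 in WT wide peaks, and of their 123 protein-coding genes 0 did in either list. A difference between pseudogenes and coding genes was not tested. A peak of some width overlapped 121 of these coding genes in Irx5KO and 122 in WT. At chr7:8639401-9913780, where wide peaks overlapped 13 pseudogenes and 0 protein-coding genes, Irx5KO had 2 wide peaks and WT 12, with coverage by peaks of any width of 88.83% in Irx5KO and 91.45% in WT.

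A few shorter arrays held genes with established names. On chromosome 1, chr1:84971681-85653970 held 5 Irx5KO and 3 WT wide peaks with 0.567 and 0.577 Mb, over Sp110, Sp140 and part of Sp100. These genes encode chromatin readers of nuclear bodies. Of the span of Sp100, 6.68% lay in Irx5KO and 6.7% in WT wide peaks. Cyp3a41a and Cyp3a41b, drug-metabolising cytochrome P450 genes of the liver, lay in wide peaks of both lists at chr5:145558531-146562520, as the only ones of 99 cytochrome P450 genes (2.02%). Serpina1a and Serpina1c, which encode forms of alpha-1-antitrypsin, lay in WT wide peaks only. At that locus, chr12:103809451-103909130, Irx5KO had 0 wide peaks among 46 peaks and WT had 3 among 12, and peaks covered 90.52% of it in Irx5KO and 97.83% in WT.

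Wide peaks also lay over arrays of small RNA genes. The 5S ribosomal RNA array at chr8:123537201-123624980 held 48 genes, and all 48 lay in wide peaks of both lists. Irx5KO split it into peaks of 63.07 and 24.52 kb, and WT had 1 peak of 87.27 kb. With Rn4.5s on chromosome 6, 49 of 61 autosomal rRNA genes (80.33%) lay in wide peaks of each list. Wide peaks overlapped snoRNA genes on chromosome 7, inside Snhg14, the imprinted host transcript of the Prader-Willi region. Of its 206 snoRNA genes, 193 lay in Irx5KO and 198 in WT wide peaks. Peaks of any width covered 82.85% of that neighbourhood in Irx5KO and 83.23% in WT. Each list had 6 wide peaks there, with 0.426 Mb in Irx5KO and 0.443 Mb in WT. The widest were chr7:59671841-59807310 in Irx5KO (135.5 kb) and chr7:59671701-59807310 in WT (135.6 kb). The microRNA cluster in the span of Sfmbt2, a Polycomb-type gene, had 36 of its 72 miRNA genes in the Irx5KO wide peak of 26.38 kb and 40 in the WT wide peak of 31.08 kb. On chromosome 1, 15 tRNA genes lay beside Fcgr3, an antibody receptor gene, in an Irx5KO peak of 22.53 kb at chr1:171063681-171086210. WT had 4 narrower peaks that covered 98.58% of that peak, so 0 of these tRNA genes counted as inside a WT wide peak.

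Genes chosen for their roles in skin and in the study's subject were counted in wide peaks as well. The lists cover HFSC identity, hair cycle activation and quiescence, DNA repair, the Iroquois genes, markers of other skin cell types and housekeeping genes. Of 156 matched genes, 0 lay in Irx5KO and 1 in WT wide peaks, against 1.54% and 1.61% of all autosomal protein-coding genes, so the count was near that of genes in general. Irx5 itself lay in none, so wide peaks give no check of the genotype. The gene in a WT wide peak was Dock2, a Rac activator of white blood cells, from the list of 10 immune markers.

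Dock2 held the least covered member of either list. The WT peak chr11:34545121-34682200 was 137.1 kb wide, with a score at percentile 99.29 of its list, and lay inside the gene, chr11:34226815-34783905. Irx5KO had 1 peak of 580 bp there, at the right border, chr11:34681661-34682240, and covered 0.394% of the stretch. The 100 kb flanks were alike in both lists: peaks covered 8.11% on the left and 9.23% on the right in Irx5KO, against 7.68% and 11.12% in WT. Across the whole gene Irx5KO had 48 peaks that covered 4.43% of it, and WT had 67 that covered 29.94%. Of the gene, 24.61% lay inside the WT wide peak. The other 9 immune markers were overlapped by 0 wide peaks in either list.

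A longer stretch on chromosome 5 was a WT peak of 509.9 kb, chr5:15047081-15556980, over Gm21149 and Gm21190. Irx5KO covered 22.49% of it with 5 peaks. These lay at the ends, a peak of 15540 bp at the left and one of 98420 bp with 3 short ones at the right, and left a run of 395.0 kb, chr5:15062671-15457660, with no Irx5KO peak. No protein-coding gene of the table lies in that run. Both flanks were dense in both lists, with 99.91% and 96.7% covered in Irx5KO and 99.93% and 98.75% in WT. The surrounding neighbourhood, chr5:14899501-15716390, holds Speer4c, Speer4d and Speer4e, which lay in wide peaks of both lists.

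The reverse case lay on chromosome 8. The Irx5KO peak chr8:55111621-55389600 was 278.0 kb wide over 7 provisional models, Gm51571 to Gm51594, with a score at percentile 99.9 of its list. WT covered 20.07% of it with peaks of 12110 and 43700 bp at the ends. Between them a run of 222.0 kb, chr8:55123721-55345700, had no WT peak and, again, no protein-coding gene of the table. The flanks were covered to 24.73% and 48.09% in Irx5KO and to 24.75% and 58.04% in WT.

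**Figure D5:**
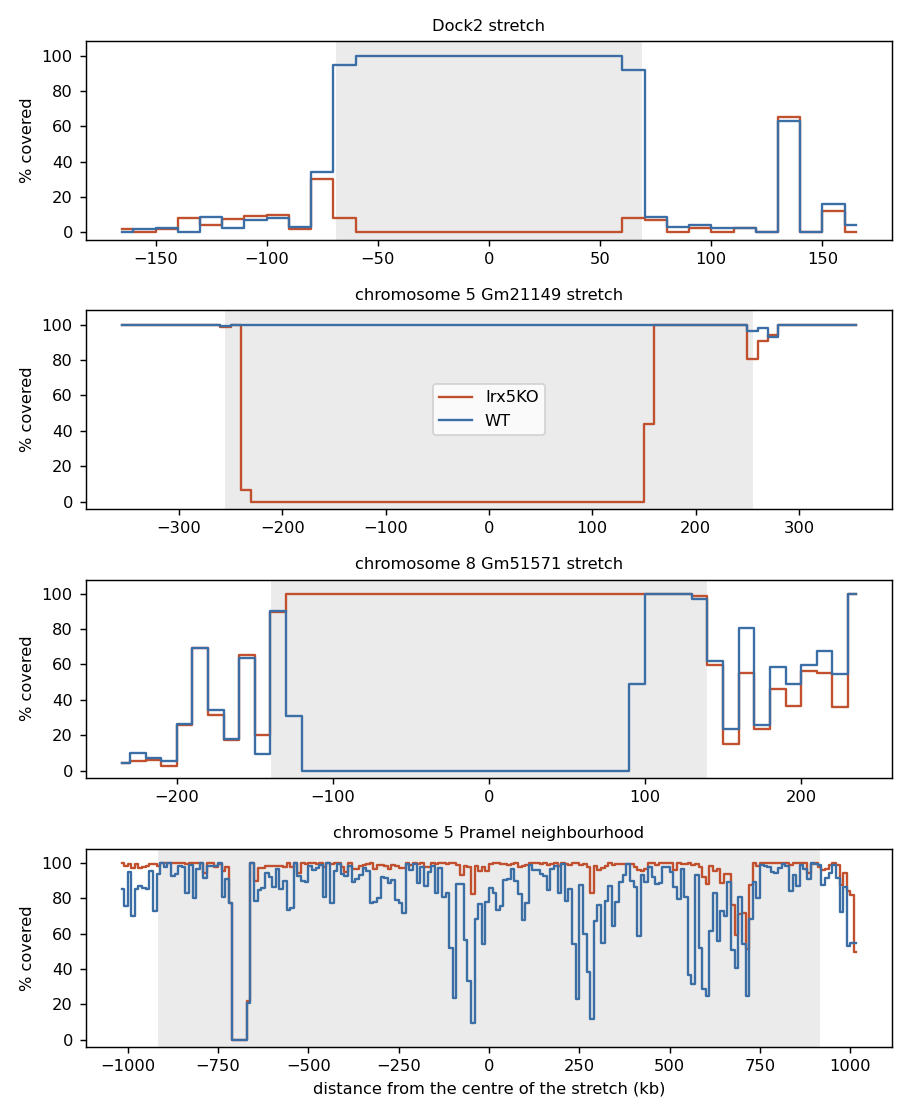
Percent of each 10 kb bin covered by peaks of Irx5KO and of WT against distance from the centre of the stretch (kb), at Dock2, the chromosome 5 and chromosome 8 stretches and the Pramel neighbourhood (shaded in grey). Irx5KO has 1 short peak in the 137.1 kb Dock2 stretch that WT covers to 100%. In the Pramel neighbourhood both lists are at 0 in 1 run left of the centre. Coverage across that neighbourhood is 94.66% in Irx5KO and 80.61% in WT, and WT is low in further places.

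The Pramel neighbourhood, chr5:93887111-95713970, differed between the lists both in peak width and in coverage. Irx5KO had 19 wide peaks there with 0.605 Mb and WT had 0. Irx5KO had 288 peaks of any width, with a median of 2665 bp and a maximum of 82160 bp, while WT had 793, with a median of 780 bp and a maximum of 17130 bp. Together they covered 94.66% of the neighbourhood in Irx5KO and 80.61% in WT. All 14 Pramel genes in it were covered in both lists, to a median of 99.91% in Irx5KO (83.74 to 100) and 94.29% in WT (65.52 to 100), and 8 of them met an Irx5KO wide peak, among them Pramel36, Pramel40 and Pramel39. The 3 Irx5KO members of lowest coverage after the chromosome 8 stretch were here and overlapped no gene of the table. The members chr5:94687881-94711350 and chr5:95028141-95051610, were 23.47 kb wide each and covered to 41.24% and 41.76% by 17 and 15 WT peaks. The last, chr5:94804961-94836580, was covered to 75.49% by 27. Every other Irx5KO member was covered to at least 92.2%.

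On the same chromosome a neighbourhood around Speer1, chr5:10862241-11931440, went the other way. Irx5KO had 2 wide peaks among 399 and WT had 12 among 187. Coverage by all peaks was 91.48% in Irx5KO and 96.17% in WT. Of the WT members other than those at Dock2 and chr5:15047081-15556980, the least covered was at Serpina1c, chr12:103886551-103909130, with 93.93%. The Prl2c3 and Prl2c2 locus, which encodes placental proliferins, showed the same difference in number: at chr13:12735581-13259360 Irx5KO had 3 wide peaks among 104 and WT 8 among 65, with 96.71% covered in Irx5KO and 98.04% in WT.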

How the data were processed

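HFSC chromatin was transposed for 30 min at 37 °C and sequenced paired-end, with 80 M reads planned per sample, per the labels' protocols. The submitters' processing notes name FastQC, cutadapt 2.9, Bowtie2, Genrich 0.6, deepTools 3.4.2, ChIPseeker 1.24.0 and build mm10. Their settings, and the handling of multiply mapped or duplicate reads and of the Tn5 offset, are not stated in the labels or notes. The deposited lists hold peak positions and the authors' score per peak, used only as a rank within a list; read depth is not in them. Each list pools 2 replicates.

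Coverage is the share of a peak's bases inside any peak of the other list. It equalled that of bedtools 2.31.1 in 390 of 390 Irx5KO and 415 of 415 WT members and was tested on simulated data. Genes were RefSeq spans of GRCm38.p6, the assembly of mm10, overlapped by at least 1 bp. The table used here has no strand, exons or UTRs. Promoters were matched by position, and 333 genes in Irx5KO wide peaks had at least 1. Identity came from edlib. Of 160 gene list entries, 156 were matched. No genome sequence was used here, so repeats and assembly gaps inside peaks were not examined, and the part played by reads that align to several copies was not tested.

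Members, gene lists and families were chosen with earlier results of these data known. The rule for named items took the 10 widest and the 10 least covered members per list, the 3 peaks on each side of the limit, the 12 families with most genes in wide peaks list genes in wide peaks, and 3 promoter pairs of high identity, 1 per family. Neighbourhoods, small RNA arrays and other genes named beyond this were chosen after their values were seen. Python 3.11.15, numpy 2.4.6, pandas 2.3.3, scipy 1.17.1 and matplotlib 3.10.9 were used.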

Additional observations from a re-analysis of the deposited data

Results flagged for a closer look

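Outside the autosomes, unplaced contigs held 22 Irx5KO and 10 WT peaks of 20 kb or wider, a signal in sequence that the comparisons do not use. On 5 contigs assigned to chromosome 5 the Irx5KO list had 1, 2, 3, 3 and 5 such peaks and the WT list 0, 0, 0, 0 and 1. The WT list held more peaks of any width on each of these 5, up to 490 on 1 contig, where Irx5KO held 168. On the other contigs with a wide peak the lists differed by at most 1.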

How the results depend on the processing

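Of 51 alternative values, 23 stayed with the value reported and 28 moved. Whether a direction reversed was not assessed. The number of wide peaks was 105 in Irx5KO and 124 in WT at a limit of 50 kb, and 656 and 719 when peaks up to 500 bp apart were joined. Median coverage in Irx5KO was 99.99% at 50 kb. In WT it was 99.57% at 15 kb, 99.76% at 25 kb, 99.89% at 50 kb, and 84.93% when only wide Irx5KO peaks could cover. Irx5KO members covered to less than 50% numbered 5 at 15 kb, 1 at 25 kb and 1 at 50 kb. Overlap with a protein-coding gene was 47.63% in Irx5KO and 44.88% in WT at 15 kb, 63.87% and 56.92% at 25 kb, and 79.05% and 81.45% at 50 kb. It was 28.46% and 24.34% when the midpoint had to lie in the gene, and 86.41% and 86.99% over all genes of the table. Merged loci numbered 284 when joined over 10 kb and 113 over 100 kb. Promoters with at least 50% of words shared were 79.05% in Irx5KO and 78.47% in WT with words of 20 bases, and 59.46% and 57.97% with words of 50 bases. Word lengths and the neighbourhood distance were chosen after seeing the data. The cause of these moves was not tested beyond the settings themselves.

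No paired analysis was possible because each deposited list pools both replicates of its genotype. For the same reason no replicate was left out. Depth per list is not known here, and a peak in 1 list only does not show that the other genotype lacks open chromatin there.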
